A study of Mus musculus with 9 samples.

Results

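Prostaglandin synthesis and signalling genes were followed across RNA-seq libraries of mouse colon organoids, three-dimensional cultures of epithelium grown from crypts. The set held 7 genes, Pla2g4a, Ptgs1, Ptgs2, Ptges, Ptges2, Ptger4 and Hpgd, out of 48795 genes in the deposited table. Tests were run on the 12741 genes that averaged at least 10 across the 9 libraries, and all 7 were among them. The set was chosen on measured values, because the response of Ptgs2 to FICZ differed between genotypes in these same libraries. The pattern of Ptgs2, and the difference between genotypes in the FICZ change of every member, are therefore given as values with no test.

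Organoids came from WT mice or from mice labelled AHR KO, bred to lose the aryl hydrocarbon receptor (AHR), a transcription factor switched on by small ligands. Per the study's methods, AHR KO mice carried a floxed Ahr allele (from tm1a embryonic stem cells) and Villin-Cre, which acts in gut epithelium, and WT mice were littermates, all on a C57BL/6 background. All organoids were kept in WENR, a medium that holds cells in a stem-cell state. Besides Wnt3a, EGF, Noggin and R-spondin, it contains the p38 inhibitor SB202190, the ALK5 inhibitor A83-01 and nicotinamide, which every group therefore shared. Stimulation was with the solvent DMSO or with 5 nM FICZ, a high-affinity AHR ligand, for 4 h. The groups were WT DMSO (n = 2, replicates 2 and 3), AHR KO DMSO (n = 2, replicates 1 and 3), WT FICZ (n = 3, replicates 1, 2 and 3) and AHR KO FICZ (n = 2, replicates 1 and 3).

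Prostaglandins are short-range lipid signals. Phospholipases such as the enzyme encoded by Pla2g4a release arachidonic acid from membranes, and the cyclooxygenases COX-1 (Ptgs1) and COX-2 (Ptgs2) turn it into prostaglandin H2. Terminal synthases (Ptges, Ptges2) convert this to prostaglandin E2, which acts through receptors such as EP4 (Ptger4) and is inactivated by 15-hydroxyprostaglandin dehydrogenase (Hpgd). In the colon, prostaglandin E2 is known for its part in epithelial repair and tumour growth.

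Values are the authors' normalised counts, which summed to between 23177058 and 25033827 per library. The depth in reads is unknown, and differences are on the log2(value + 1) scale, with standard errors from 1 limma fit over all 9 libraries. Ahr itself was higher in the libraries labelled AHR KO, by 0.74 ± 0.07 under DMSO (limma adjusted p = 0.000194), so its count does not show the deletion. The AHR target Cyp1b1 was lower there by 43.3-fold under DMSO (adjusted p = 7.77e-06) and 56.4-fold under FICZ (adjusted p = 2.30e-07). FICZ still raised AHR targets in the libraries labelled AHR KO. Cyp1a1 went from a mean of 1.46 to 120 there (5.91 ± 0.78, adjusted p = 0.00209) and from 2.92 to 7581 in WT. Cyp1b1 went from 30.0 to 179 there (2.52 ± 0.24, adjusted p = 0.00112), whereas Tiparp was not called in AHR KO and went from 1452 to 5212 in WT. The 7 epithelial markers summed to between 298933 and 325290 in every library. Single members differed, and Epcam and Cdx2 were each 1.35-fold lower in AHR KO under DMSO (adjusted p = 0.00846 and 0.0191). Under FICZ Cdx2 was 2.11-fold and Epcam 1.38-fold lower there, and Krt18 was 1.30-fold higher (adjusted p = 2.23e-05, 0.00145 and 0.00575). In WT, Cdx2 was 1.74-fold higher with FICZ (adjusted p = 0.000271). In contrast to the epithelial sums, 6 fibroblast markers summed to at most 4.64. Of 7 immune markers, 4 were listed at 0 throughout and only Cd68 reached a mean of 10, with a mean of 544 over all libraries.

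Promoter windows were read from RefSeq (GRCm38.p6), from 250 bases before to 50 bases after each annotated start, for all 7 members. Those of Ptgs2, Pla2g4a and Ptgs1 are shown because Ptgs2 and Pla2g4a shared an arrangement of libraries and a chromosome, and Ptgs1 had the largest genotype difference of the 7 members. Sequences run 5′ to 3′ on the strand of the gene. Capitals mark any of 4 motifs, searched on both strands. The first was the AHR core GCGTG, and the second the E-box CACGTG. The third was the half-site TGACG of the cAMP response element, and the fourth the C/EBP palindrome TTGCGCAA. The motifs were picked with the Ptgs2 window in view, so their shares are a description.
Ptgs2 (chr1:150099781-150100080, plus strand): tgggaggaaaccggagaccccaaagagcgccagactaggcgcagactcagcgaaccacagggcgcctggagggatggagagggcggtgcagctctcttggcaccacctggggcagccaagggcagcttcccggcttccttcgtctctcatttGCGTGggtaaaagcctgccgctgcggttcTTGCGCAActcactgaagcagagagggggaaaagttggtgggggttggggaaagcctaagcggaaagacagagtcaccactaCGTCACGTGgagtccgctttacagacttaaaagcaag
Pla2g4a (chr1:149961241-149961540, minus strand): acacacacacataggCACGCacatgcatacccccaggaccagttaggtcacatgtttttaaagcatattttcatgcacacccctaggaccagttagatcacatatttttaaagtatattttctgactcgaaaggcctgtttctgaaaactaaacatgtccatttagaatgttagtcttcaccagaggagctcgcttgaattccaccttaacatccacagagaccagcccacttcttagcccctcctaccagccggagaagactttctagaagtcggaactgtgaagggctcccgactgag
Ptgs1 (chr2:36230176-36230475, plus strand): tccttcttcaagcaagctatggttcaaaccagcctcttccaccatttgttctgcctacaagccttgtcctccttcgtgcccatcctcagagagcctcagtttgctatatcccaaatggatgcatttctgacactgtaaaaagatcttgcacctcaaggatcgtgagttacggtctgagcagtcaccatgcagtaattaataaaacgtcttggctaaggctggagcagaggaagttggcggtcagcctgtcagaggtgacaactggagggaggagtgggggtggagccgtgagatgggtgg
The Ptgs2 window held each motif 1 time. The AHR core began 98 bases before the annotated start and the C/EBP palindrome 69 bases before it. The half-site and the E-box, which share 2 bases, began at bases 14 and 17 of the annotated transcript. These distances hold for the RefSeq start only, and the start used in these organoids was not measured. Among all 32851 RefSeq windows of this length, 32.4% held the AHR core, 20.8% the half-site, 7.15% the E-box and 0.183% the palindrome. Pla2g4a held 1 AHR core, 235 bases before this start, and none at its second annotated start. Ptgs1 and Ptger4 held no motif, and Ptges, Ptges2 and Hpgd held 1 AHR core each. Ptges2 also held an E-box, 77 bases before its start. A match is a run of letters and not a shown binding site.

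In outline, Ptgs2 went from a mean of 185 to 475 normalised counts with FICZ in WT organoids and from 122 to 102 in AHR KO organoids. Ptgs1 was 8.28-fold higher in AHR KO than in WT organoids under DMSO, whereas Pla2g4a and Hpgd were lower. Ptges, Ptges2 and Ptger4 passed no test. FICZ in WT organoids called 0 of the 6 members other than Ptgs2 by limma at an adjusted p of 0.05, and 0 at an unadjusted p of 0.05, against 30.8% of all genes tested. In AHR KO organoids FICZ called 1 of 6 (Pla2g4a, lower), against 19.7% of all genes. Between genotypes, 3 of 6 (Ptgs1 higher, Pla2g4a and Hpgd lower) were called under DMSO, against 9.05% of all genes, and the same 3 under FICZ, against 20.0%. The median change of the 6 members, beside that of all genes tested, was 0.10 against -0.01 for FICZ in WT, 0.10 against -0.01 for FICZ in AHR KO, -0.16 against -0.01 for genotype under DMSO, and -0.04 against -0.004 for genotype under FICZ. These 4 comparisons share groups with one another and are not independent. The members were chosen with earlier results of these data known, so the counts are a description and not a test of the set.

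**Figure D1:**
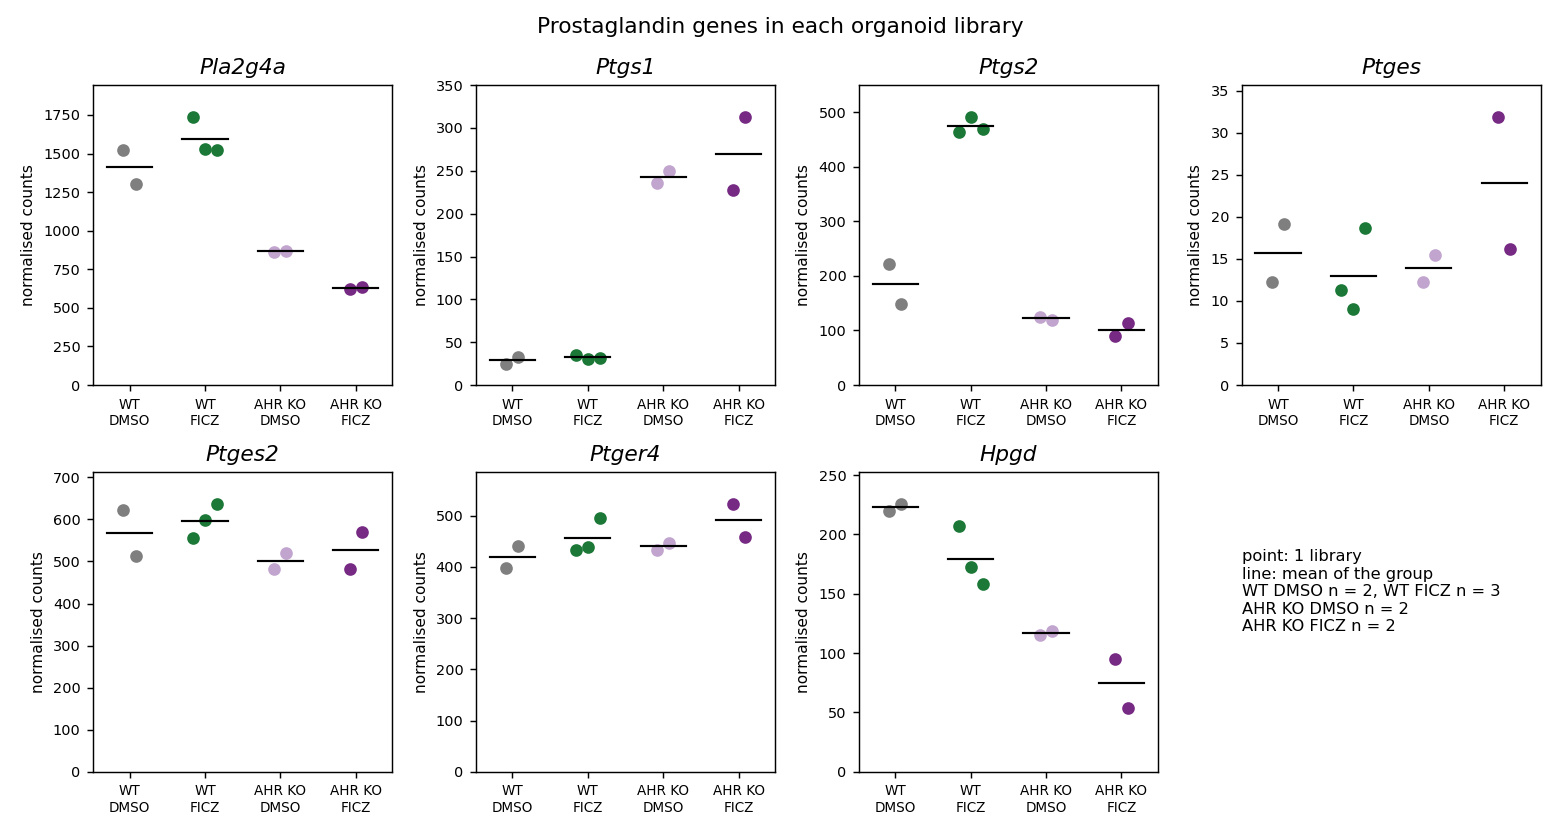
Normalised counts (vertical axes, from 0) of the 7 prostaglandin genes in each of the 4 groups, with 1 point per library and a line at the group mean. The 3 WT FICZ libraries stand apart for Ptgs2, all AHR KO libraries lie above all WT libraries for Ptgs1, and the order is the opposite for Pla2g4a and Hpgd.

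Ptgs2 encodes the inducible cyclooxygenase and lies at chr1:150100031-150108227. It measured 222 and 148 normalised counts in the WT DMSO libraries and 464, 491 and 470.1 in the WT FICZ libraries. In AHR KO organoids it measured 125 and 119 with DMSO and 89.2 and 114 with FICZ. All WT FICZ libraries thus lay above both WT DMSO libraries, and both AHR KO FICZ libraries lay below both AHR KO DMSO libraries. Of all genes tested, 1.23% showed that arrangement, 56.4% had WT groups that did not overlap in either direction, and 62.5% had AHR KO groups that did not.

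On the log2 scale Ptgs2 differed with FICZ by 1.39 ± 0.17 in WT (2.61-fold) and by -0.27 ± 0.19 in AHR KO (0.83-fold). The difference between these 2 changes was 1.66 ± 0.25 (SE), which is the value that chose the set and is a description. Over the whole table, 0.447% of genes were called for such a difference, from which nothing is read for Ptgs2. The WT DMSO pair was the least even, and the WT change was 1.10 without WT DMSO replicate 3 and 1.68 without WT DMSO replicate 2. Over the alternatives run, the AHR KO change lay between -0.45 and -0.06. Compared with WT, AHR KO organoids held 1.48-fold less Ptgs2 under DMSO (-0.57 ± 0.19) and 4.67-fold less under FICZ (-2.22 ± 0.17). The DMSO value was -0.28 without WT DMSO replicate 2 and -0.86 without WT DMSO replicate 3.

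Ptgs1 encodes the constitutive cyclooxygenase and lies at chr2:36230426-36252272. It was low in every WT library, at 24.3 and 33.2 with DMSO and at 34.9, 30.6 and 31.7 with FICZ. AHR KO libraries held 236 and 250.1 with DMSO and 227 and 313 with FICZ. No AHR KO library overlapped a WT library. Within a single stimulation, the groups of both genotypes did not overlap for 58.0% of genes tested under DMSO and 47.2% under FICZ. Ptgs1 was higher in AHR KO organoids by 3.05 ± 0.22 with DMSO (limma adjusted p = 5.99e-05) and by 3.01 ± 0.20, or 8.03-fold, with FICZ (adjusted p = 8.02e-06). It was called in all 20 alternatives run for each. FICZ moved Ptgs1 by 0.18 ± 0.20 in WT (adjusted p = 0.536) and by 0.14 ± 0.22 in AHR KO (adjusted p = 0.707), with 95% intervals from 0.83- to 1.54-fold and from 0.78- to 1.54-fold.

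Tuft cells are a known source of COX-1 in gut epithelium. Their 8 markers summed to between 34.8 and 46.9 in the AHR KO DMSO libraries, and between 72.7 and 79.7 in the WT DMSO libraries. Gfi1b and Il25 were listed at 0 throughout, and 6 of the 8 averaged under 10. Of the 2 tested, Dclk1 had means of 41.7 in WT and 4.27 in AHR KO under DMSO (8.03-fold lower, limma adjusted p = 0.0102) and Avil had 27.7 and 30.8. Under FICZ Dclk1 had means of 24.2 and 10.8 and was not called (adjusted p = 0.275). The part of tuft cells in the Ptgs1 difference was not tested. Under FICZ the sum of the 8 tuft markers ranged from 62.4 to 73.9 in AHR KO and from 35.3 to 73.3 in WT. Fewer cells of a type and less RNA per cell cannot be told apart in such bulk libraries.

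The 3 genes whose log2 values followed Ptgs1 most closely were Nnt (Pearson r = 0.994), Entpd3 (0.993) and Gm4742 (0.992), over 9 libraries that fall into 2 genotypes. Nnt, a mitochondrial transhydrogenase, measured 343 and 361 in WT DMSO and 918 and 1047 in AHR KO DMSO, a difference of 1.47 ± 0.10 (limma adjusted p = 5.17e-05). Gm4742, a processed pseudogene, was listed at 0 in all 5 WT libraries and between 32.8 and 43.6 in the 4 AHR KO libraries. As background, Nnt carries a deletion in the C57BL/6J substrain that C57BL/6N lacks. Which substrain each organoid line came from is not given in the sources used here, and its part in the Ptgs1 difference was not tested.

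Set per kilobase of joined exons, the balance between both cyclooxygenases differed by genotype. Ptgs2 made up 88.6% and 79.1% of the summed level of both genes in the WT DMSO libraries and 91.9%, 93.2% and 92.6% in the WT FICZ libraries. In AHR KO it made up 31.04% and 28.8% with DMSO and 25.0% and 23.6% with FICZ. Thus Ptgs2 exceeded Ptgs1 in all 5 WT libraries and Ptgs1 exceeded Ptgs2 in all 4 AHR KO libraries. With only the longest transcript as length, the Ptgs2 share lay between 74.1% and 91.2% in WT and between 19.0% and 25.5% in AHR KO. The summed level per kilobase was 54.7 and 40.8 in WT DMSO, 88.0 and 90.4 in AHR KO DMSO, 110.2, 115 and 111 in WT FICZ, and 78.0 and 105 in AHR KO FICZ.

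**Figure D2:**
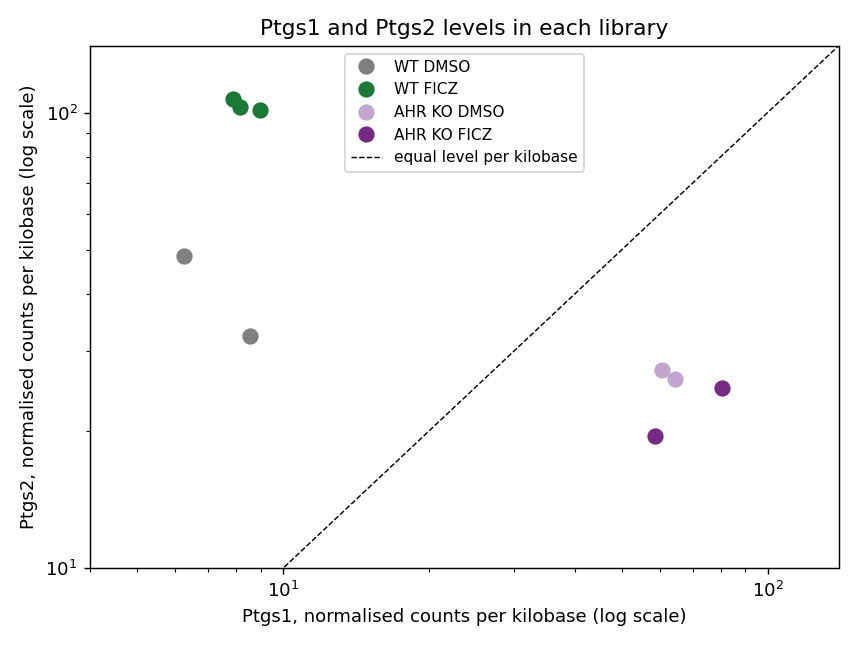
Level of Ptgs2 (vertical axis) against Ptgs1 (horizontal axis) in each library, in normalised counts per kilobase of joined exons on log axes, with a dashed line at equal levels. The 5 WT libraries lie above the line and the 4 AHR KO libraries below it.

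Pla2g4a, the cytosolic phospholipase A2 that supplies arachidonic acid, lies at chr1:149829618-149961290, 138740 bases from Ptgs2 on the opposite strand. It measured 1520.0 and 1300.3 in WT DMSO, 1736, 1532 and 1522 in WT FICZ, 864 and 871 in AHR KO DMSO, and 625 and 635 in AHR KO FICZ. Every AHR KO library lay below every WT library. Genotype groups that did not overlap were common, at 58.0% of genes tested under DMSO and 47.2% under FICZ. Pla2g4a was 1.62-fold lower in AHR KO under DMSO (-0.70 ± 0.09, limma adjusted p = 0.00136) and 2.53-fold lower under FICZ (-1.34 ± 0.08, adjusted p = 5.11e-06). Both calls held in all 20 alternatives run for each.

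With FICZ, Pla2g4a fell by 0.46 ± 0.09 in AHR KO organoids (limma adjusted p = 0.00822). This call was lost when GC and length trends were removed (-0.30, adjusted p = 0.109). It was also lost without AHR KO DMSO replicate 1, where the value stayed at -0.47. In WT the change was 0.18 ± 0.08 and was not called (adjusted p = 0.124), except with GC and length trends removed (0.34, adjusted p = 0.0264). Over the alternatives run, the WT change lay between 0.07 and 0.34. All WT FICZ libraries lay above both WT DMSO libraries and both AHR KO FICZ libraries lay below both AHR KO DMSO libraries, as for Ptgs2. Of all genes tested, 1.23% showed that arrangement. The 2 changes differed by 0.64 ± 0.12, which was not tested.

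Of the 25 annotated genes within 500 kb of Ptgs2 and Pla2g4a, a count that includes both, only Odr4 and Tpr were also expressed enough to be tested. Neither was called by limma in any of the 5 comparisons. Odr4 ranged from 543 to 700.0 normalised counts and Tpr from 5580 to 8167 over all libraries. The antisense transcript Ptgs2os was listed at 0 in 8 libraries and at 1.55 in WT FICZ replicate 1, and Ptgs2os2 was listed at 0 in all.

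Prostaglandin E synthases showed no called change. Ptges, the inducible microsomal synthase, was the lowest member, at 12.2 and 19.2 in WT DMSO, 11.3, 9.03 and 18.7 in WT FICZ, 12.2 and 15.5 in AHR KO DMSO, and 31.8 and 16.2 in AHR KO FICZ. Both AHR KO FICZ libraries lay above both AHR KO DMSO libraries, and 62.5% of genes tested had AHR KO groups that did not overlap. The change of 0.69 ± 0.47 was not called (limma adjusted p = 0.341, interval 0.77- to 3.35-fold). In WT it was -0.28 ± 0.43 (adjusted p = 0.664), and between genotypes -0.15 ± 0.47 under DMSO (adjusted p = 0.889) and 0.82 ± 0.43 under FICZ (adjusted p = 0.215). Ptges2, the membrane-associated synthase, ranged from 482 to 637 with groups that overlapped under either stimulation. FICZ moved it by 0.08 ± 0.11 in WT (adjusted p = 0.640) and by 0.07 ± 0.12 in AHR KO (adjusted p = 0.736). Its genotype difference was -0.17 ± 0.12 under DMSO (adjusted p = 0.422) and -0.18 ± 0.11 under FICZ (adjusted p = 0.275), with intervals of 0.74- to 1.07-fold and 0.74- to 1.04-fold.

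Ptger4, which encodes the receptor EP4 that raises cAMP, ranged from 398 to 523 over all libraries. Its means were 420 ± 30.8 in WT DMSO (SD, n = 2), 457 ± 34.5 in WT FICZ (n = 3), 440.3 ± 9.98 in AHR KO DMSO (n = 2) and 491 ± 45.1 in AHR KO FICZ (n = 2). FICZ moved it by 0.12 ± 0.10 in WT (limma adjusted p = 0.381) and by 0.16 ± 0.11 in AHR KO (adjusted p = 0.339). The genotype intervals were 0.89- to 1.24-fold under DMSO and 0.93- to 1.25-fold under FICZ. Of the other prostaglandin E receptors, Ptger1 had a mean of 15.0 over all libraries, Ptger3 a mean of 3.97, and Ptger2 was listed at 0.

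Hpgd, which inactivates prostaglandin E2, measured 220.0 and 226 in WT DMSO, 207, 172 and 158 in WT FICZ, 115 and 119 in AHR KO DMSO, and 95.1 and 53.7 in AHR KO FICZ. Every AHR KO library lay below every WT library, and within each genotype the FICZ libraries lay below the DMSO libraries. Groups that did not overlap were common, at 58.0% of genes tested for genotype under DMSO, 47.2% under FICZ, 56.4% for FICZ in WT and 62.5% for FICZ in AHR KO. Hpgd was 2.47-fold lower in AHR KO under FICZ (-1.30 ± 0.22, limma adjusted p = 0.00215), a call kept in all 20 alternatives. Under DMSO it was 1.90-fold lower (-0.93 ± 0.24, adjusted p = 0.0378). That call was lost without the filter on low values (adjusted p = 0.0695) and without any 1 of WT DMSO replicate 2 or 3 or AHR KO DMSO replicate 1 or 3 (adjusted p from 0.147 to 0.163), while its value stayed at -0.93 without the filter and between -0.95 and -0.90 without a library.

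FICZ moved Hpgd by -0.32 ± 0.22 in WT (limma adjusted p = 0.293) and by -0.70 ± 0.24 in AHR KO (adjusted p = 0.0642), neither of which was called. In AHR KO the call was gained with quantile normalisation (adjusted p = 0.0493) and with a block for the replicate number (0.0488). It was also gained without AHR KO FICZ replicate 1, where the value was -1.11. Over the alternatives run, the AHR KO change of Hpgd lay between -1.11 and -0.29. Markers of mature cells moved with the genotype too. The 7 colonocyte markers summed to between 2952 and 4362 in WT and between 940.2 and 1448 in AHR KO libraries, and 6 goblet markers to between 3522 and 5574 and between 1233 and 1692. Of 5 colonocyte markers tested, 3 were lower in AHR KO under DMSO and 5 under FICZ, and of 4 goblet markers 2 were lower under each, against 9.05% of all genes called under DMSO and 20.0% under FICZ. None of the markers of either list was at 0 in all libraries, and their part in the Hpgd and Pla2g4a differences was not tested.

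**Figure D3:**
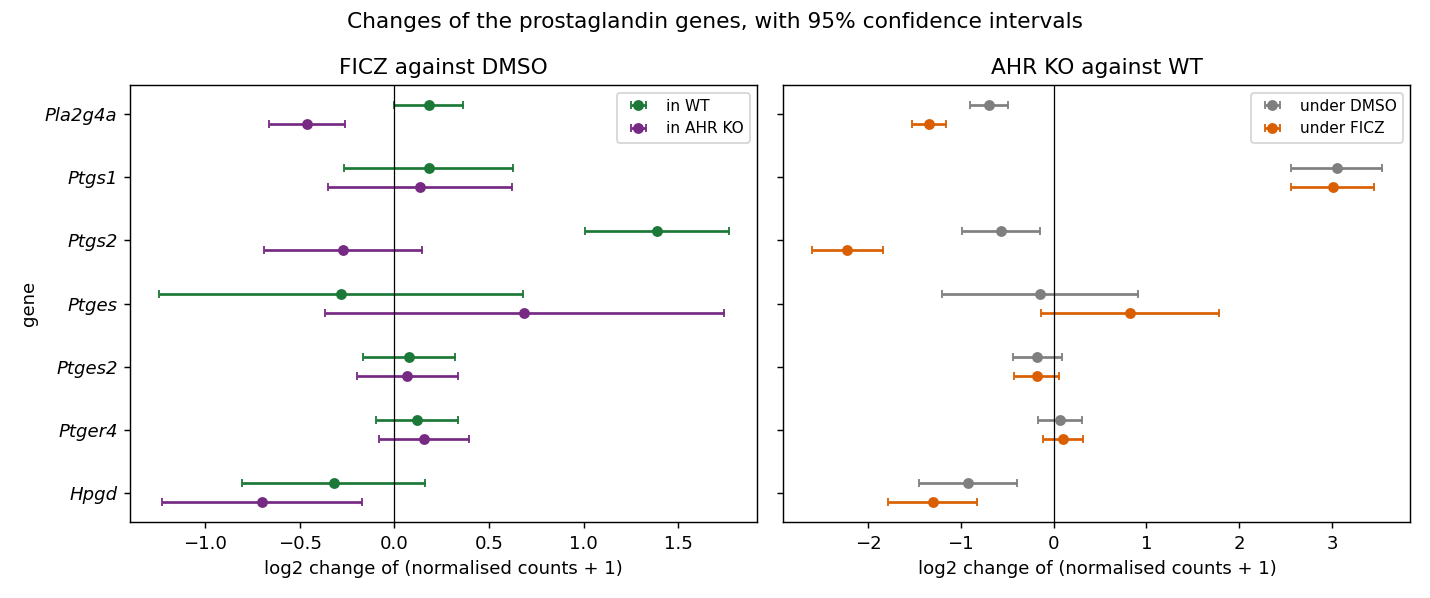
Log2 changes of the 7 genes with 95% confidence intervals from limma, for FICZ against DMSO in each genotype (left) and for AHR KO against WT under each stimulation (right). Ptgs2 stands at 1.39 in WT and -0.27 in AHR KO on the left, and Ptgs1 near 3 on the right under both stimulations. The intervals drawn for Ptgs2 are no test, because its FICZ response chose the set.

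By level per kilobase of joined exons, Pla2g4a was first in WT DMSO (221), followed by Hpgd (132), Ptges2 (112), Ptger4 (63.1), Ptgs2 (40.3), Ptgs1 (7.41) and Ptges (4.00). The ranges of Hpgd and Ptges2 over libraries did not overlap there, from 131 to 134 and from 102 to 123. In AHR KO DMSO, Ptgs1 (62.5) came after Hpgd (69.5) and Ptger4 (66.2) and before Ptgs2 (26.6), with library ranges that did not overlap (60.7 to 64.4 for Ptgs1 and 65.2 to 67.3 for Ptger4). With FICZ, Ptgs2 per kilobase reached 104 in WT, in the range of Hpgd (94.2 to 123), and 22.2 in AHR KO. Ptges was last in all 4 groups. Taking the longest transcript as the length left 18 of the 28 ranks in place, moved Ptger4 up in 3 groups, and put Ptgs1 (84.7) before Hpgd (69.5) in AHR KO DMSO.

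A wider list of 30 prostanoid genes was looked at beside the members, and 14 of them passed the filter. The receptors Ptger2, Ptgfr, Ptgir and Ptgdr and the synthases Ptgds and Tbxas1 were listed at 0 in all libraries. FICZ called 0 of 14 in WT by limma, against 30.8% of all genes, with 4 of 14 at an unadjusted p of 0.05. In AHR KO it called 1 of 14, against 19.7% of all genes. This was Ptgr2, a reductase of prostaglandin breakdown products, which fell by 0.33 ± 0.08 (limma adjusted p = 0.0203). The count was 0 with GC and length trends removed and without AHR KO DMSO replicate 1 or 3 or AHR KO FICZ replicate 3, and 2 without AHR KO FICZ replicate 1 or WT FICZ replicate 2. In WT it was 2 without WT FICZ replicate 2, 3 with GC and length trends removed, and 1 with libraries scaled to equal totals or the line as a random effect. The median change with FICZ was 0.13 in WT and 0.01 in AHR KO, beside -0.01 and -0.01 over all genes.

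Between genotypes, 3 of the 14 were called under DMSO and 6 under FICZ, against 9.05% and 20.0% of all genes. These counts were 1 under DMSO without WT DMSO replicate 2 or either AHR KO DMSO library, and 3 under FICZ without AHR KO FICZ replicate 3. Pla2g10, a secreted phospholipase A2, measured 35.1 and 31.7 in WT DMSO, 7.14 and 6.63 in AHR KO DMSO, 43.1, 23.0 and 40.7 in WT FICZ, and 4.95 and 0.83 in AHR KO FICZ. It was lower in AHR KO by -2.12 ± 0.56 under DMSO (limma adjusted p = 0.0407) and by -3.42 ± 0.51 under FICZ (adjusted p = 0.00107). Cyp4f14, an omega-hydroxylase of eicosanoids, was lower by -1.09 ± 0.22 (adjusted p = 0.0146) and -1.27 ± 0.20 (adjusted p = 0.00174). Abcc4, an exporter of prostaglandins, was higher by 0.37 under either stimulation (adjusted p = 0.00457 and 0.00108). Under FICZ Pla2g12a, another secreted phospholipase A2, was higher by 0.39 and the reductases Cbr1 and Zadh2 were lower by -0.29 and -0.18. Their values under DMSO were 0.36, -0.17 and -0.07 and were not called, and none of the 3 was called for the difference between the FICZ changes. The median of the list was 0.10 under DMSO and -0.03 under FICZ, beside -0.01 and -0.004 over all genes.

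**Figure D4:**
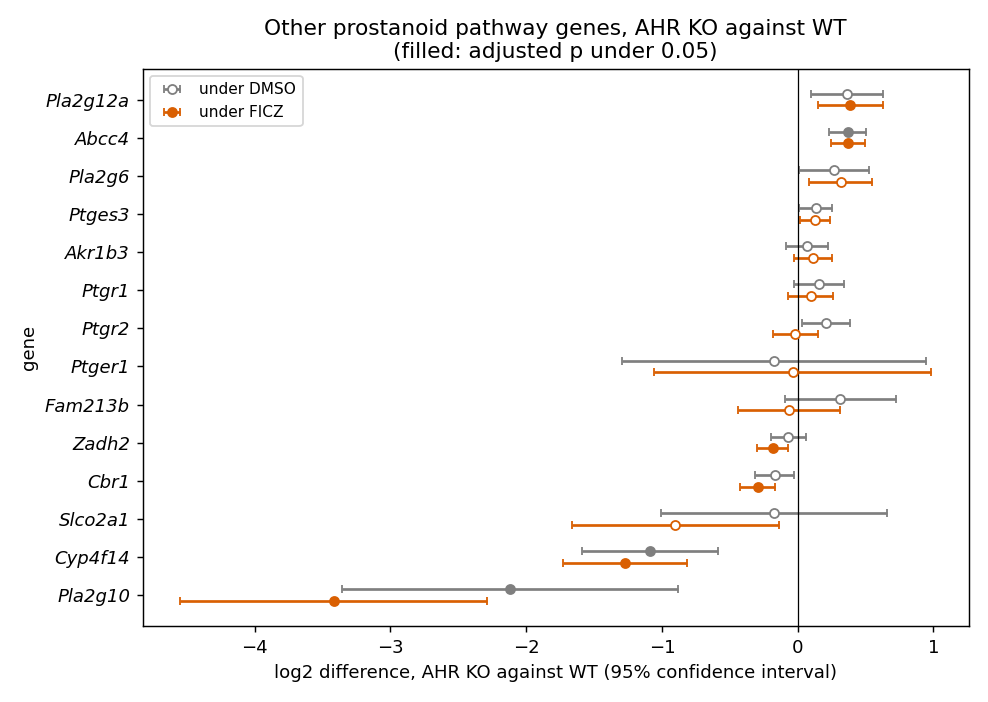
Log2 difference of AHR KO against WT for the 14 tested genes of the wider prostanoid list, with 95% confidence intervals and filled points for a limma adjusted p under 0.05. Pla2g10 and Cyp4f14 lie furthest to the left, and Abcc4 is filled under both stimulations.

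Neighbouring lipid pathways were read in the same way. Of 12 other eicosanoid genes, 6 were tested, and Ephx1 and Ephx2, which hydrolyse epoxides of arachidonic acid among other lipids, were higher in AHR KO. Ephx1 was higher by 0.84 ± 0.08 under DMSO (limma adjusted p = 0.000231) and by 0.92 ± 0.07 under FICZ (adjusted p = 2.23e-05), and Ephx2 by 0.84 ± 0.17 (adjusted p = 0.0143) and 0.90 ± 0.16 (adjusted p = 0.00302). Under DMSO 1 of these 2 calls was lost without WT DMSO replicate 2 or either AHR KO DMSO library. These 2 of 6 stand against 9.05% of all genes under DMSO and 20.0% under FICZ. FICZ called 0 of the 6 in either genotype, against 30.8% of all genes in WT and 19.7% in AHR KO, with 1 in WT and 0 in AHR KO at an unadjusted p of 0.05. In WT the count was 1 without WT DMSO replicate 3.

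Early genes induced by cAMP, the second messenger of EP4, were counted from a list of 11, of which 10 were tested. FICZ called 3 higher in WT, Nr4a1 (0.51), Dusp1 (0.48) and Fos (0.25), and 2 higher in AHR KO, Nr4a1 (0.51) and Sik1 (0.54). These 3 of 10 and 2 of 10 are close to the shares of all genes called, 30.8% and 19.7%. Areg, which encodes the growth factor amphiregulin, was lower in AHR KO by -0.43 ± 0.11 under DMSO (limma adjusted p = 0.0327) and by -0.80 ± 0.10 under FICZ (adjusted p = 0.000299). The count called with FICZ was 0 in WT without WT DMSO replicate 3. With GC and length trends removed it was 1 in WT and 0 in AHR KO. In AHR KO it was 0 without AHR KO DMSO replicate 1 or AHR KO FICZ replicate 1 and 1 without AHR KO DMSO replicate 3 or AHR KO FICZ replicate 3, without the filter on low values or with the replicate block. Between genotypes 1 of the 10 was called under DMSO (Areg), against 9.05% of all genes, and 2 of the 10 under FICZ (Areg and Fos, lower), against 20.0%. Under DMSO the count was 0 without the filter on low values and without WT DMSO replicate 2, AHR KO DMSO replicate 1 or AHR KO DMSO replicate 3.

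Regulators of Ptgs2 transcription or mRNA decay formed a list of 9, all tested. Cebpb, a C/EBP factor, was higher with FICZ in both genotypes, by 1.24 ± 0.15 in WT (limma adjusted p = 0.000432) and by 0.98 ± 0.16 in AHR KO (adjusted p = 0.00435). Its relative Cebpd measured 383 and 406 in WT DMSO and 344, 335 and 319 in WT FICZ, but 323 and 317 in AHR KO DMSO and 577 and 491 in AHR KO FICZ. For Cebpd the change with FICZ was smaller in WT than in AHR KO by -0.98 ± 0.14 (adjusted p = 0.0141), the opposite sign to Ptgs2. No gene of the list was called for this difference without any 1 of the 4 DMSO libraries. Zfp36, which promotes decay of AU-rich mRNAs, was higher with FICZ by 0.45 in WT (adjusted p = 0.00284) and by 0.31 in AHR KO (adjusted p = 0.0353). Jun, an AP-1 subunit, was lower in AHR KO by -0.55 ± 0.10 with DMSO (adjusted p = 0.00754) and by -0.50 ± 0.09 with FICZ (adjusted p = 0.00368). Under DMSO 2 of the 9 were called between genotypes, Jun and Zfp36, and the count was 0 without WT DMSO replicate 2 or AHR KO DMSO replicate 3 1 without WT DMSO replicate 3, AHR KO DMSO replicate 1, WT FICZ replicate 3 or either AHR KO FICZ library, and 4 without WT FICZ replicate 2. It was also 1 with a pseudocount of 0.1, without the filter on low values, with quantile normalisation and with libraries scaled to equal totals. Under FICZ 5 of the 9 were called between genotypes, Jun, Zfp36 and Zfp36l1 lower and Cebpd and Nfkb1 higher, and 3 without AHR KO FICZ replicate 3. With FICZ 2 of the 9 were called in WT, and 5 without WT FICZ replicate 2. In AHR KO organoids 3 were called with FICZ, 1 without AHR KO DMSO replicate 1, and 5 without WT FICZ replicate 2 or with libraries scaled to equal totals. Over all genes, 30.8% and 19.7% were called with FICZ, and 9.05% and 20.0% between genotypes.

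The 8 genes whose log2 values followed Ptgs2 most closely over the 9 libraries were Ereg (Pearson r = 0.992), Cdo1, Pof1b, Cpox, Tob1, Tns4, Pik3r3 and Grhl3 (0.976). Ereg, which encodes the growth factor epiregulin, measured 1421 and 1251 in WT DMSO, 2233, 2234 and 2232 in WT FICZ, 1036 and 1147 in AHR KO DMSO, and 966 and 990.0 in AHR KO FICZ. Grhl3, an epithelial transcription factor, went from a mean of 150.0 to 311 in WT and from 75.4 to 58.1 in AHR KO. For Pla2g4a the closest were Mier3 (0.992), Cd177 (0.992) and Me2 (0.988), and for Hpgd they were Pde5a (0.991), Rspry1 (0.990) and 2500004C02Rik (0.984). Ptger4 (highest r = 0.953), Ptges (0.925) and Ptges2 (0.917) had weaker matches. These correlations describe 9 points that share 4 groups and carry no test.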

How the data were processed

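Organoid RNA was sequenced from stranded libraries depleted of ribosomal RNA. The authors deposited 1 table of normalised counts, a signal whose values are at least 0 and often fractional. The study's methods name summarizeOverlaps on mm10 and DESeq2, and the submitters' processing notes list STAR 2.5.2a, RSEM 1.2.31, DESeq2 1.16.1 and GRCm38. The deposited values are labelled as RSEM normalised data, which points to RSEM as the counter. The step that scaled them is not given in the sources used here. A change of counter or scaling could move low genes such as Ptges.

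Only 51.6% to 61.3% of values under 20 lay near whole multiples of the smallest step (tolerance 0.05), so read numbers could not be rebuilt and count models were not applied. Identifiers were matched to GENCODE M21 (48435, or 99.3%). Values were analysed as log2(value + 1) with a pseudocount of 1, which understates changes of low genes. Genes averaging at least 10 across the 9 libraries were fitted with limma 3.58.1 (R 4.3.3, trend), all 4 groups together, with Benjamini-Hochberg adjustment over 12741 genes, two-sided, calls at 0.05. The script was tested on simulated data.

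The labels give no separate origin for the samples beyond replicate numbers, and the methods call them biological replicates. The methods state 3 biological replicates, and only WT FICZ had that many libraries here. P-values rest on the spread between libraries within groups, pooled over the 4 groups, with all 9 libraries taken as independent. With 2 or 3 libraries a group, no exact test of a single value was run. The members and lists were chosen with earlier results of these data known. Named genes were the 7 members, wider prostanoid genes that were called or listed at 0, up to 5 called genes of each other list, the genes closest to each member by correlation (8 for Ptgs2, 3 for each other), 4 AHR checks genes within 500 kb of Ptgs2 and Pla2g4a and markers of cell types. Ptger1 and Ptger3 were named after their values were seen. Alternatives were another pseudocount, filter or scaling, removal of GC and length trends, other transcript lengths and leaving out each library. A block for the replicate number was also run, and a random effect for the line, taken as genotype with replicate number. Further replicates were not analysed here.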

Additional observations from a re-analysis of the deposited data

Results flagged for a closer look

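Ptgs2 was marked because all WT FICZ libraries lay above both WT DMSO libraries while both AHR KO FICZ libraries lay below both AHR KO DMSO libraries, with changes that differed by 1.66 on the log2 scale. The genes were brought together for this pattern, and the difference was not tested.

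Pla2g4a was marked for the same arrangement of libraries, with changes that differed by 0.64. The difference was not tested.

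Cebpd was marked because its change with FICZ was smaller in WT than in AHR KO by -0.98 (limma adjusted p = 0.0141), with all 3 WT FICZ libraries below both WT DMSO libraries and both AHR KO FICZ libraries above both AHR KO DMSO libraries. With any 1 of the 4 DMSO libraries left out, no gene of the Ptgs2 regulator list was called for this difference.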

How the results depend on the processing

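Leaving out each library in turn, the Ptgs2 difference between genotypes in the FICZ change lay between 1.37 and 1.95, and it was 1.66 with all libraries. The count of the 6 other members called for FICZ in AHR KO lay between 0 and 2, and it was 2 with quantile normalisation, 2 with the replicate block and 0 with GC and length trends removed, against 1 in the full fit. With those trends removed FICZ in WT called 1 member, and the whole table gave 2333 genes for FICZ in WT against 3928 and 665 for FICZ in AHR KO against 2509. Leaving out a library gave 1993 to 4135 genes for FICZ in WT, 419 to 2957 for FICZ in AHR KO, 389 to 1473 for genotype under DMSO, 1324 to 3089 for genotype under FICZ and 23 to 78 for the difference between the FICZ changes, against 1153, 2544 and 57 in the full fits of the last 3. The Hpgd difference between the FICZ changes lay between -0.027 and 0.79 and was 0.38 with all libraries, turning negative without AHR KO FICZ replicate 3. The order of levels per kilobase kept 18 of 28 ranks with the longest transcript. The cause was not tested. Samples with the same number deviated together with r between 0.03 and 0.05 over 12741 genes, and the numbers were not taken as pairs. In groups of 2 libraries the deviations mirror each other, so both AHR KO values are the same (0.0346). Such values cannot show that the samples were unpaired. Beyond Hpgd for FICZ in AHR KO, the block for the replicate number changed no call of a member. Nor did a block for each line within its genotype, added after seeing the data for the FICZ comparisons. No scaling moved the median of all genes by more than 0.1. Depth in reads is unknown, which limits what can be said of Ptges and Pla2g10.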
